A study of Mus musculus with 11 samples.

Results

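The receptors of the epidermal growth factor (EGF) and the proteins that bind them were followed in epidermal cells of mouse back skin through 10 genes, chosen by name: the receptors *Egfr*, *Erbb2* and *Erbb3*, the ligands *Hbegf*, *Epgn*, *Areg*, *Tgfa*, *Ereg* and *Btc*, and *Errfi1*, which encodes an intracellular inhibitor of these receptors. All 10 were found among the 55536 Ensembl genes of the count tables, and all 10 were among the 20307 genes that passed the filter on low counts. RNA came from cells of the epidermal back skin of male *CD4Cre/tdT* mice on a C57Bl6/N background. In these mice a Cre recombinase driven from *Cd4* switches on the red fluorescent protein tdTomato (tdT) at *Rosa26*, so that tdT+ cells are cells that expressed Cre or their progeny, and all 4 groups, tdTneg cells included, carry both transgenes. Because T cells and other blood cells also express *Cd4*, the label is not restricted to keratinocytes.

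Cells carrying the integrin CD49f and CD34 were sorted without SCA-1 (CD49f+CD34+, here SCA-1neg cells, the phenotype of the hair follicle bulge) or with it (CD49f+CD34+SCA-1+, here SCA-1+ cells). Each library pooled 2 mice, aged 29 weeks in replicate 1 and 32 weeks in replicates 2 and 3. The study's methods give 3 biological replicates of 2 mice each, and equal replicate numbers were read here as the same pool. On that reading libraries of different groups are not independent, and the main fit had no block for the pool. There were 3 libraries of tdT+ SCA-1neg, 3 of tdTneg SCA-1neg, 3 of tdT+ SCA-1+ and 2 of tdTneg SCA-1+ cells, with 17409131 to 46542177 counts each. No treatment was given in the labels.

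EGF receptors are tyrosine kinases of the cell surface. The ligands are made as membrane proteins, are cut free by proteases of the ADAM family and bind EGFR, while ERBB2 binds no known ligand and ERBB3, a receptor for neuregulins with little kinase activity of its own, signals as a partner of the other receptors. In skin the pathway is known for keratinocyte proliferation, wound closure and the hair cycle, and in keratinocytes several of the ligands are produced by the cells that respond to them. ERRFI1 (MIG6) is itself induced by receptor signalling and blocks the kinase domain.

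*Areg*, *Epgn*, *Ereg* and *Btc* lie in 1 cluster on chromosome 5, in which the starts of the outermost genes, *Epgn* and *Btc*, are 375.53 kb apart. The promoters of the 3 genes called between SCA-1+ and SCA-1neg cells are shown here because *Areg* and *Epgn* were higher and *Egfr* was lower in SCA-1+ cells (values follow). Each run holds the 250 bases before the RefSeq start, on GRCm38.p6 and 5′ to 3′, all on the plus strand, and capitals mark any match to the motifs searched.

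Areg, chr5:91139349-91139598: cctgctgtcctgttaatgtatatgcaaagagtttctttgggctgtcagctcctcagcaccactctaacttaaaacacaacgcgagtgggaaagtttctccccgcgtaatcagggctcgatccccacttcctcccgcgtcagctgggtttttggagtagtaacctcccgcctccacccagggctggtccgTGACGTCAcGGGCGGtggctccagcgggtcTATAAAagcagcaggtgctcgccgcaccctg
Epgn, chr5:91027267-91027516: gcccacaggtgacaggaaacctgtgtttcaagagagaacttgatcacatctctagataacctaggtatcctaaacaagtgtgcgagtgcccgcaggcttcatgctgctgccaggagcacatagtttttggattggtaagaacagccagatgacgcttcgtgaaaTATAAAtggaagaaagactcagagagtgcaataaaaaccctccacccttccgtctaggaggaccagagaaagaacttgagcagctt
Egfr, chr11:16751953-16752202: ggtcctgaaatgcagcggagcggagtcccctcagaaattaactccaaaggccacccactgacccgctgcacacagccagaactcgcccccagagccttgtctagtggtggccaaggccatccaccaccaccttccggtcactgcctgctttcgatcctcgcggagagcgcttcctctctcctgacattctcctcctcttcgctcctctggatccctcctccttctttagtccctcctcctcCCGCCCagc

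Motifs were searched on both strands, and no 2 matches overlapped in these 3 runs. Among 32536 promoter windows of the same length, the site of the AP-1 factors, TGANTCA, was in 6.73%. The cAMP response element, TGACGTCA, was in 1.56%, and the letters TATAAA of the box that sets the start in many regulated genes were in 12.3%. The GC box, GGGCGG, was in 33.0%, and the site of the TEAD factors, GGAATG, was in 12.6%. The *Areg* window held TGACGTCA beginning 61 bases before the start, GGGCGG at 52 and TATAAA at 31. The *Epgn* window held TATAAA at 86 bases and no other match, and the *Egfr* window held the GC box, on the other strand, at 9 bases. The Ensembl start of *Epgn*, chr5:91027464, lies inside its window, so TATAAA is nearer to that start than to the RefSeq start. These matches describe letters, and binding was not measured. RefSeq windows were at hand for 7 of the 10 genes, the others being *Erbb3*, *Ereg* and *Hbegf*.

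Before the comparisons, each library was checked against its labels. Keratinocyte genes dominated in all 11 libraries, with *Krt14* between 2612 and 14619 normalized CPM (counts scaled to library size, with edgeR's TMM factors). *Ly6a*, which encodes SCA-1, lay between 153 and 294 CPM in SCA-1+ and between 2.46 and 59.2 CPM in SCA-1neg libraries. *Cd34* was at 467 to 1129 CPM in SCA-1neg and 319 to 382 CPM in tdTneg SCA-1+ cells, but at only 22.3 to 35.6 CPM in tdT+ SCA-1+ cells, although these were sorted as CD34+. The tables hold 1 row outside the Ensembl genes, at 133 to 307 CPM in 5 of the 6 tdT+ libraries, at 2.54 to 4.89 CPM in the tdTneg libraries and at 2.05 CPM in the library labelled tdT+ SCA-1neg replicate 2. That library goes against its group in this row. Its leukocyte and T cell list summed to 73.4 CPM, near the other tdT+ SCA-1neg libraries (71.5 and 72.1) and above the tdTneg SCA-1neg libraries (5.36 to 20.7). In other measures it was the highest of all 6 SCA-1neg libraries and apart from both groups, with *Ly6a* at 59.2 CPM against 2.46 to 27.6 in the other 5, the endothelial list at 378 against 5.84 to 86.9, the Langerhans cell list at 298 against 13.7 to 111, the macrophage list at 272 against 4.39 to 107 and the suprabasal list at 3289 against 166 to 1791. Its label was left as given and could not be settled from these values, and the comparisons that use tdT+ SCA-1neg cells are also given without it.

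Markers of other cell types moved with the sorted groups. The leukocyte and T cell list (8 genes) summed to 5.36 to 20.7 CPM in tdTneg SCA-1neg, 71.5 to 73.4 in tdT+ SCA-1neg, 90.9 to 106 in tdTneg SCA-1+ and 355 to 903 in tdT+ SCA-1+ libraries. The Langerhans cell list (5 genes) reached 529 to 589 CPM in tdTneg SCA-1+ and 225 to 336 in tdT+ SCA-1+ libraries, against 13.7 to 298 in SCA-1neg libraries. The endothelial list (5 genes) was at 1457 to 1546 CPM in tdTneg SCA-1+ and at 5.84 to 378 in all other libraries. The suprabasal list (3 genes) was higher in SCA-1+ than in most SCA-1neg libraries and the bulge list (5 genes) was lower in every SCA-1+ library, at 3312 to 5410 against 7885 to 14588 CPM. The dissociation response list (10 genes, early response genes among them) lay between 10130 and 17159 CPM in SCA-1neg and between 11348 and 17051 CPM in SCA-1+ libraries, which overlapped. The part of these cells in the differences of the EGF receptor genes was not tested, and in bulk RNA fewer cells of a type cannot be told apart from less RNA per cell.

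**Figure D1:**
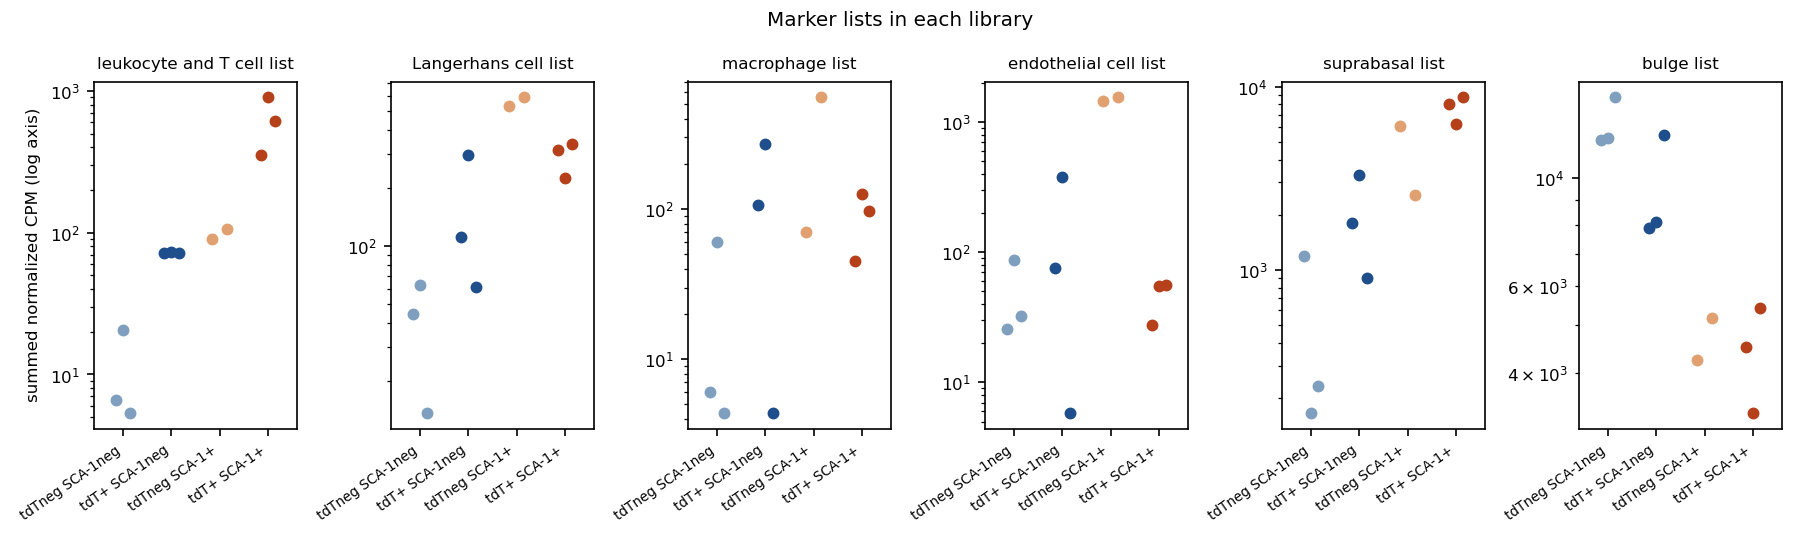
Summed normalized CPM of 6 marker lists (log axes, 1 panel per list) in each of the 11 libraries, 1 point per library, by sorted group. The leukocyte and T cell list is highest in the 3 tdT+ SCA-1+ libraries (355 to 903 CPM), the endothelial list in the 2 tdTneg SCA-1+ libraries (1457 to 1546 CPM), and the bulge list is lower in the 5 SCA-1+ libraries (3312 to 5410 CPM) than in the 6 SCA-1neg libraries.

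To compare genes with each other, CPM were divided by the length of the gene's merged exons in kb. This length includes exons of every annotated isoform, such as 11.3 kb for *Egfr* and 1.22 kb for *Areg*, so the order of the genes depends on it. On this per-length scale the mean over 11 libraries was highest for *Errfi1* (86.5 ± 32.7 CPM per kb, SD), followed by *Erbb3* (32.7 ± 11.4), *Erbb2* (30.0 ± 7.45), *Epgn* (26.9 ± 26.5), *Egfr* (26.8 ± 12.5), *Hbegf* (23.7 ± 7.54), *Areg* (14.9 ± 16.5), *Tgfa* (7.15 ± 2.77), *Ereg* (1.28 ± 1.28) and *Btc* (0.645 ± 0.382). The genes from *Erbb3* to *Hbegf* in this order differed pairwise by less than the larger of their SDs. The order differed between the populations: *Egfr* ranked second of the 10 in SCA-1neg cells (35.4 CPM per kb) and 7 in SCA-1+ cells (16.4), while *Epgn* ranked 6 in SCA-1neg cells (9.88) and second in SCA-1+ cells (47.2).

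The main comparison was of SCA-1+ with SCA-1neg cells, taken as the mean of the differences in tdT+ and in tdTneg cells. SCA-1+ cells had more RNA of the ligands *Areg* and *Epgn* and less RNA of their receptor *Egfr*. Genes were called where the Benjamini-Hochberg adjusted p was under 0.05 and the absolute log2 fold change exceeded 1 (edgeR quasi-likelihood test, with the thresholds of the study's methods). By this rule 3 of the 10 genes were called, against 11.6% of all genes tested. *Areg* and *Epgn* were called higher, as 4.77% of all genes were, and *Egfr* was called lower, as 6.79% were. The 5 SCA-1+ and 6 SCA-1neg libraries did not overlap for *Egfr*, *Areg*, *Epgn*, *Tgfa* and *Hbegf*, against 10.8% of all genes. For *Hbegf* this held only with TMM factors. Without the library labelled tdT+ SCA-1neg replicate 2, the same 3 genes were called, against 11.3% of all genes, and the same 5 did not overlap, against 14.1%.

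**Figure D2:**
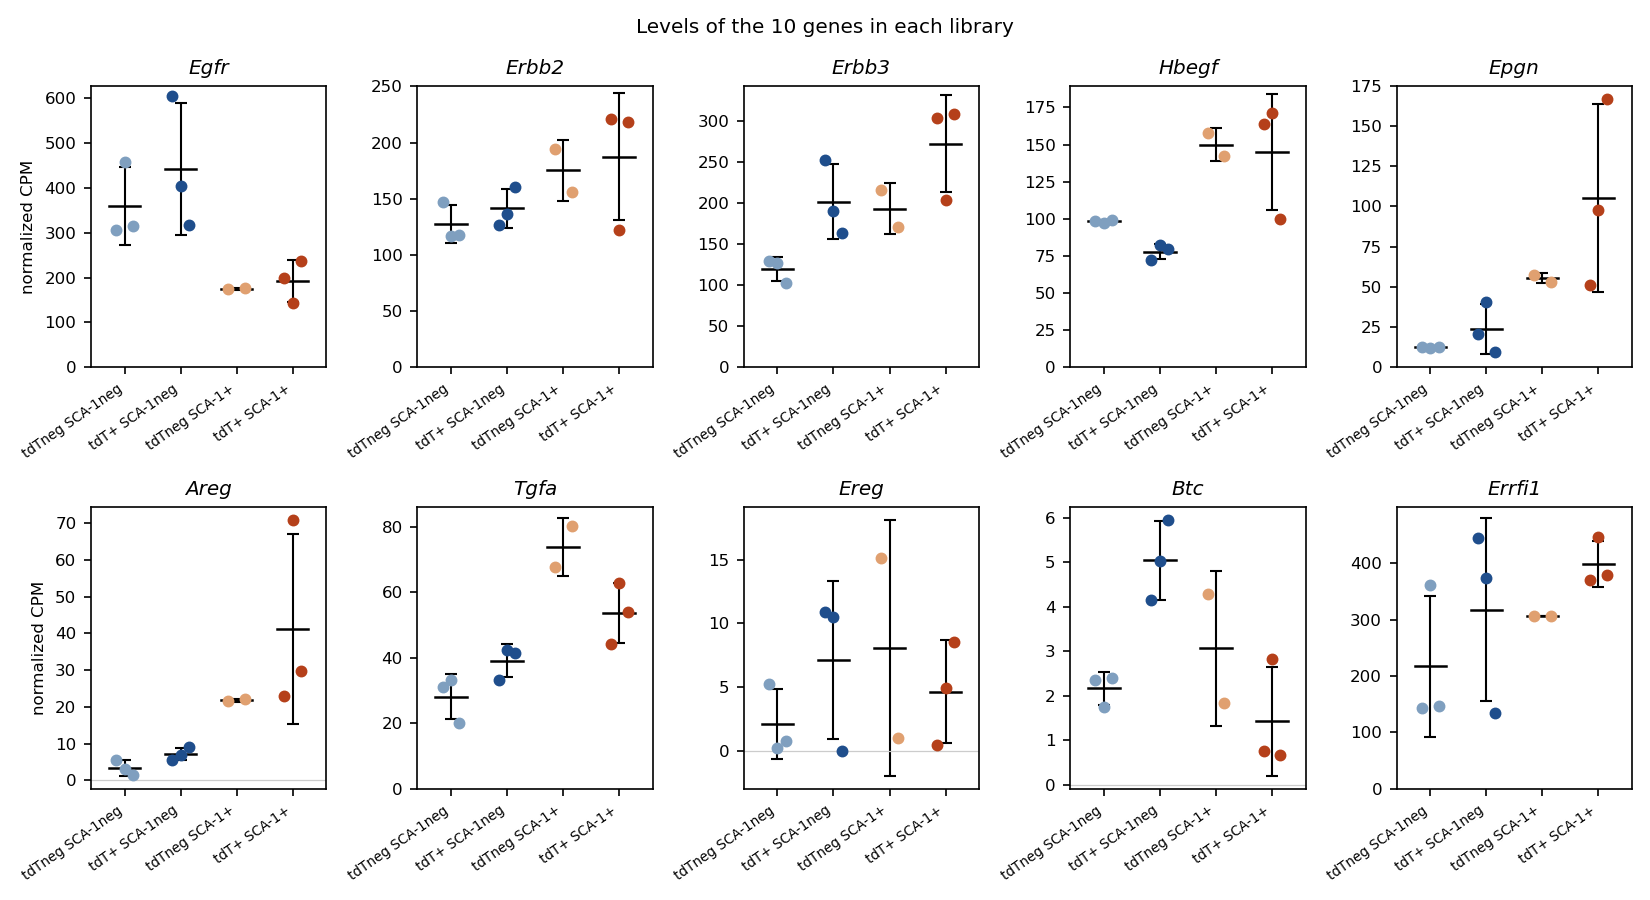
Normalized CPM (linear axes) of the 3 receptors, 6 ligands and *Errfi1* in each library of the 4 sorted groups; points are libraries, horizontal lines group means and error bars 1 SD (n = 2 for tdTneg SCA-1+, otherwise 3). *Egfr* is lower in all 5 SCA-1+ libraries (144 to 237 CPM) than in any SCA-1neg library (305 to 605 CPM), and *Areg* is higher (21.5 to 70.9 against 1.32 to 9.03 CPM).

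*Egfr* (ENSMUSG00000020122, chr11:16752203-16918158, plus strand, GRCm38) encodes the receptor that binds all 6 ligands measured here. Its level was 605, 405 and 318 CPM in tdT+ SCA-1neg replicates 1 to 3 and 305, 459 and 315 CPM in tdTneg SCA-1neg replicates 1 to 3. It was 198, 144 and 237 CPM in tdT+ SCA-1+ replicates 1 to 3 and 174 and 176 CPM in tdTneg SCA-1+ replicates 1 and 2. Every SCA-1+ library lay below every SCA-1neg library, and the tdT+ and tdTneg libraries overlapped within each population. The log2 fold change was -1.12 (SE 0.21, 95% confidence interval -1.58 to -0.66, edgeR adjusted p = 0.0051), a level 2.17-fold lower in SCA-1+ cells. It was -1.21 between the 29-week libraries alone (n = 4, all of replicate 1) and -1.03 between the 32-week libraries (n = 7, of replicates 2 and 3), as differences of mean log2 CPM. Leaving out tdT+ SCA-1neg replicate 1, the library with the highest level, gave -0.97 with an adjusted p of 0.0077, which missed the fold threshold.

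*Erbb2* and *Erbb3*, the partner receptors, did not fall with *Egfr*. *Erbb3* (ENSMUSG00000018166, chr10:128567523-128589652, minus strand) had group means of 272 ± 59.1 CPM in tdT+ SCA-1+ (n = 3), 201 ± 45.6 in tdT+ SCA-1neg (n = 3), 193 ± 31.4 in tdTneg SCA-1+ (n = 2) and 119 ± 14.4 in tdTneg SCA-1neg cells (n = 3, all SD). Its log2 fold change of 0.56 between the populations (SE 0.16) passed the adjusted p (0.036) but not the fold threshold, and without the library labelled tdT+ SCA-1neg replicate 2 the adjusted p was 0.066. *Erbb2* (ENSMUSG00000062312, chr11:98412470-98437716, plus strand) lay between 117 and 161 CPM in SCA-1neg and between 122 and 221 CPM in SCA-1+ libraries, which overlapped. Its log2 fold change was 0.43 (interval 0.06 to 0.81, adjusted p = 0.097).

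Among the ligands, *Areg* (ENSMUSG00000029378, chr5:91139599-91148432, plus strand) showed the greatest difference. It encodes amphiregulin, a ligand made by keratinocytes and also by some T cells and other immune cells. In SCA-1neg cells it was at 5.57, 6.90 and 9.03 CPM in tdT+ replicates 1 to 3 and at 5.55, 3.12 and 1.32 CPM in tdTneg replicates 1 to 3, the lowest value resting on 54 counts. In SCA-1+ cells it was at 23.0, 70.9 and 29.9 CPM in tdT+ replicates 1 to 3 and at 21.5 and 22.1 CPM in tdTneg replicates 1 and 2. All 5 SCA-1+ libraries exceeded all 6 SCA-1neg libraries. The highest, tdT+ SCA-1+ replicate 2, was also the library with the highest sum of the leukocyte and T cell list (903 CPM), and the part of those cells in its *Areg* level was not tested. The log2 fold change was 2.62 (SE 0.40, interval 1.72 to 3.51, adjusted p = 0.0019), 6.13-fold higher in SCA-1+ cells, and 1.99 between the 29-week and 2.97 between the 32-week libraries.

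*Epgn* (ENSMUSG00000035020, chr5:91027464-91035215, plus strand) encodes epigen, a ligand expressed in epithelia. It was at 20.6, 40.2 and 9.58 CPM in tdT+ SCA-1neg replicates 1 to 3, and at 12.5, 11.8 and 12.4 CPM in tdTneg SCA-1neg replicates 1 to 3. In SCA-1+ cells it was at 51.1, 97.7 and 167 CPM in tdT+ replicates 1 to 3 and at 57.6 and 53.2 CPM in tdTneg replicates 1 and 2. The tdTneg libraries of each population were close together, whereas the tdT+ libraries spread over a wide range in both. The log2 fold change was 2.17 (SE 0.37, interval 1.34 to 2.997, adjusted p = 0.0033), 4.50-fold higher in SCA-1+ cells, with 1.75 between the 29-week and 2.41 between the 32-week libraries. The highest SCA-1neg level, 40.2 CPM, was in the library labelled tdT+ SCA-1neg replicate 2, and without it the log2 fold change was 2.49 (adjusted p = 0.0014).

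*Tgfa* and *Hbegf* were higher in every SCA-1+ library than in any SCA-1neg library, for *Hbegf* only with TMM factors. As the mean over tdT the difference was below the fold threshold for both. *Tgfa* (ENSMUSG00000029999, chr6:86195223-86275719, plus strand), which encodes transforming growth factor alpha, was at 33.3, 42.5 and 41.6 CPM in tdT+ SCA-1neg and 30.9, 33.1 and 20.2 CPM in tdTneg SCA-1neg replicates 1 to 3. It was at 44.2, 62.8 and 54.0 CPM in tdT+ SCA-1+ replicates 1 to 3 and at 67.6 and 80.2 CPM in tdTneg SCA-1+ replicates 1 and 2. With TMM factors the 4 groups did not overlap with each other, in the order tdTneg SCA-1+, tdT+ SCA-1+, tdT+ SCA-1neg, tdTneg SCA-1neg. Without them the tdT+ and tdTneg SCA-1neg libraries overlapped, at 29.7 CPM in tdT+ and 32.2 CPM in tdTneg replicate 1. Between the populations *Tgfa* differed by 0.93 on the log2 scale (SE 0.16, edgeR adjusted p = 0.0033). *Hbegf* (ENSMUSG00000024486, chr18:36504927-36515805, minus strand) encodes heparin-binding EGF-like growth factor, a ligand induced in wounded epidermis, and lay between 71.9 and 98.9 CPM in SCA-1neg and between 99.97 and 171 CPM in SCA-1+ libraries. Without TMM factors the populations overlapped, with tdT+ SCA-1+ replicate 3 at 97.2 CPM and tdTneg SCA-1neg replicate 1 at 102 CPM. The log2 fold change of *Hbegf* was 0.75 (SE 0.14, edgeR adjusted p = 0.0045). Counting these and *Erbb3*, 6 of the 10 genes passed the adjusted p at any fold, against 19.3% of all genes.

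*Ereg* and *Btc*, the ligands with the lowest levels, gave no such separation. *Ereg* (ENSMUSG00000029377, chr5:91074622-91093646, plus strand), which encodes epiregulin, was at 10.9 and 10.5 CPM in tdT+ SCA-1neg replicates 1 and 2 but had 0 counts in replicate 3, which allows up to 0.165 CPM by counting error (3 counts of the library total). It was at 5.26, 0.264 and 0.829 CPM in tdTneg SCA-1neg replicates 1 to 3, at 0.506, 4.94 and 8.56 CPM in tdT+ SCA-1+ replicates 1 to 3 and at 15.1 and 1.004 CPM in tdTneg SCA-1+ replicates 1 and 2. Each of the 4 groups thus held at least 1 library with about 1 CPM or less, and the libraries of all 4 groups overlapped (log2 fold change 0.65, interval -2.05 to 3.36). *Btc* (ENSMUSG00000082361, chr5:91357261-91402994, minus strand), which encodes betacellulin, lay between 0.670 and 5.95 CPM, with 13 to 136 counts per library, and its log2 fold change was -0.66 (interval -1.68 to 0.35).

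*Errfi1* (ENSMUSG00000028967, chr4:150853919-150868892, plus strand) varied most within the SCA-1neg cells. It was at 444, 373 and 134 CPM in tdT+ SCA-1neg replicates 1 to 3 and at 143, 361 and 147 CPM in tdTneg SCA-1neg replicates 1 to 3, against 306 to 446 CPM in the 5 SCA-1+ libraries. The 3 SCA-1neg libraries with more *Errfi1*, 2 of them labelled tdT+ (replicate 2, the library in doubt, among them) and 1 tdTneg, were also those with more *Egfr*, at 405 to 605 against 305 to 318 CPM in the other 3. Their sebaceous gland list (5 genes) summed to 1385 to 2220 CPM against 395 to 801, and their macrophage list (4 genes) to 59.9 to 272 CPM against 4.39 to 6.07. Of the 13 marker lists, 3 more split these libraries in the same way. The endothelial list summed to 75.2 to 378 CPM in the libraries with more *Errfi1* against 5.84 to 32.1 in the other 3, the Langerhans cell list to 63.1 to 298 against 13.7 to 61.2, and the dissociation response list, which was lower with more *Errfi1*, to 10130 to 13970 against 16276 to 17159. The part of such cells and of the dissociation response was not tested. Between the populations the log2 fold change of *Errfi1* was 0.41 (interval -0.32 to 1.15, adjusted p = 0.41).

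**Figure D3:**
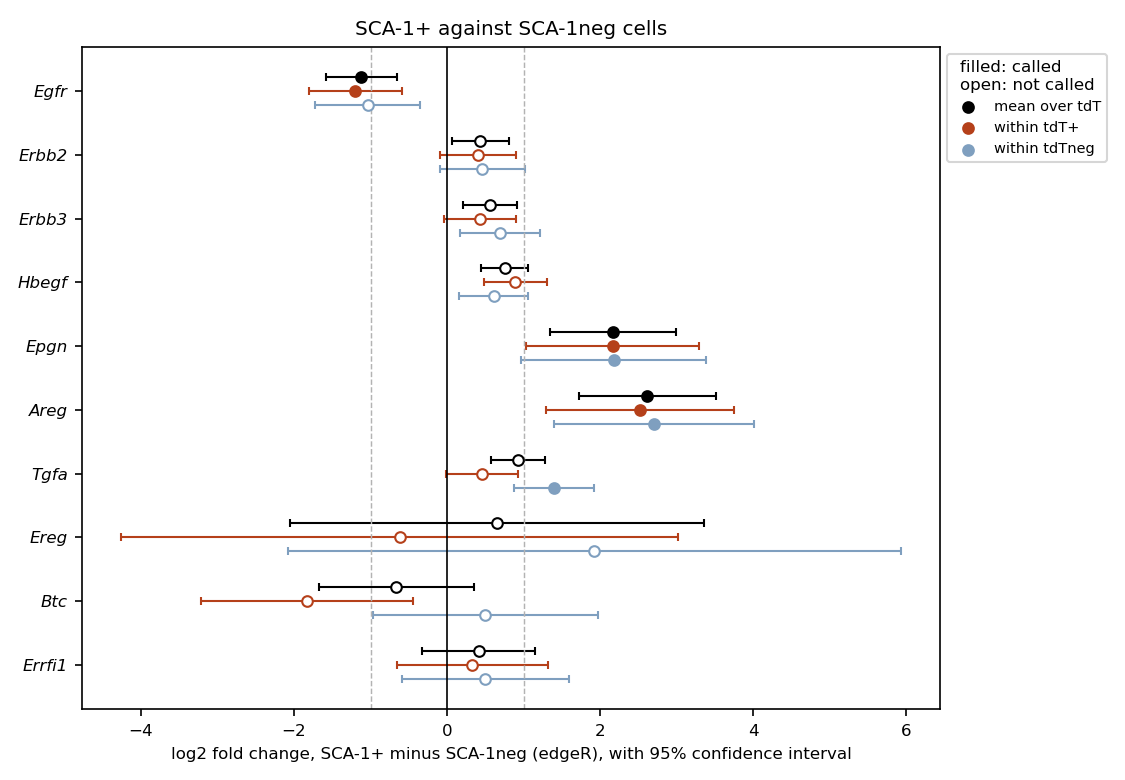
Log2 fold change of SCA-1+ over SCA-1neg cells for the 10 genes (edgeR, horizontal axis), as the mean over tdT (black), within tdT+ (red) and within tdTneg cells (blue), with 95% confidence intervals; filled points were called and dashed lines mark the fold threshold. *Areg* and *Epgn* lie above the threshold in all 3 fits, *Egfr* lies below its negative, and the intervals of *Ereg* span several log2 units.

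The same comparison was made within each tdT status. Within tdT+ cells *Areg* (log2 fold change 2.52, adjusted p = 0.016) and *Epgn* (2.16, 0.022) were called higher, as 2.91% of all genes were, and *Egfr* (-1.20, 0.019) was called lower, as 5.54% were, so that 3 of 10 genes were called against 8.45% of all genes. The same 3 were called without the library labelled tdT+ SCA-1neg replicate 2, against 8.11% of all genes. None of the 10 was called without tdT+ SCA-1neg replicate 1, when 1174 of all genes were called in place of 1715 and the adjusted p was 0.062 for *Areg*, 0.077 for *Epgn* and 0.061 for *Egfr*, and without tdT+ SCA-1+ replicate 2 only *Btc* was called of the 10, with 1442 of all genes. *Egfr* also lost its call without tdT+ SCA-1+ replicate 1 (-1.22, adjusted p = 0.056). *Epgn* lost its call without tdT+ SCA-1+ replicate 3 (1.66, adjusted p = 0.074), when *Hbegf* gained one (1.10, adjusted p = 0.0022), and in the fit of only the groups compared (2.13, adjusted p = 0.062). Of 17 alternatives *Epgn* thus lost its call in 4, *Egfr* in 3 and *Areg* in 2, with no change of direction. Their log2 fold changes were 1.66 to 2.80, -1.39 to -0.91 and 1.86 to 2.81. *Btc* was lower in all 3 tdT+ SCA-1+ libraries, at 0.772, 2.84 and 0.670 CPM, than in the 3 tdT+ SCA-1neg libraries, at 4.17, 5.03 and 5.95 CPM, with an adjusted p of 0.080 in edgeR and of 0.010 in DESeq2.

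Within tdTneg cells *Areg* (log2 fold change 2.71, adjusted p = 0.028), *Epgn* (2.18, 0.045) and *Tgfa* (1.40, 0.012) were called higher, as 3.29% of all genes were. That made 3 of 10 genes called, against 4.74% of all genes, and none was called lower, as 1.45% of all genes were. *Egfr* had a log2 fold change of -1.04 with an adjusted p of 0.085. With the replicate number as a block, *Tgfa* alone was called, and the adjusted p was 0.051 for *Areg* and 0.079 for *Epgn*. With only 2 tdTneg SCA-1+ libraries, leaving out either of them left none of the 10 genes called, while the calls over all genes fell from 963 to 55 without replicate 1 and to 420 without replicate 2. Leaving out tdTneg SCA-1neg replicate 2 or 3 left only *Tgfa* of the 10, with 828 and 216 of all genes called. *Epgn* alone lost its call without tdTneg SCA-1neg replicate 1 (adjusted p = 0.12), tdT+ SCA-1neg replicate 1 (0.059) or tdT+ SCA-1+ replicate 2 (0.060). Over 17 alternatives *Epgn* thus lost its call in 8, *Areg* in 5 and *Tgfa* in 2, at log2 fold changes of 2.11 to 2.28, 2.33 to 3.30 and 1.21 to 1.54. *Egfr* was called in 1, with genes of any count kept.

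Summed per length, the RNA of the 6 ligands and that of *Egfr* moved in opposite directions. The ligand sum was 32.2 to 55.2 CPM per kb in the 6 SCA-1neg libraries (to 39.6 without the library labelled tdT+ SCA-1neg replicate 2) and 88.1 to 159 CPM per kb in the 5 SCA-1+ libraries. Divided by the level of *Egfr* per kb, it was 0.741 to 1.55 (median 1.24) in SCA-1neg, or 0.741 to 1.43 (median 1.16) without that library, and 5.04 to 12.5 (median 6.34) in SCA-1+ libraries. These ranges are set by genes that were called above and are given as description. The make-up of the sum also differed: *Hbegf* took 30.9% to 63.4% of it in SCA-1neg and 13.95% to 38.4% in SCA-1+ libraries, *Epgn* took 14.4% to 40.3% and 32.1% to 62.4%, and *Areg* took 3.36% to 20.1% and 16.6% to 36.6%. *Tgfa* took 5.62% to 17.4% in any library, *Ereg* 0% to 6.65% and *Btc* 0.10% to 3.57%.

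**Figure D4:**
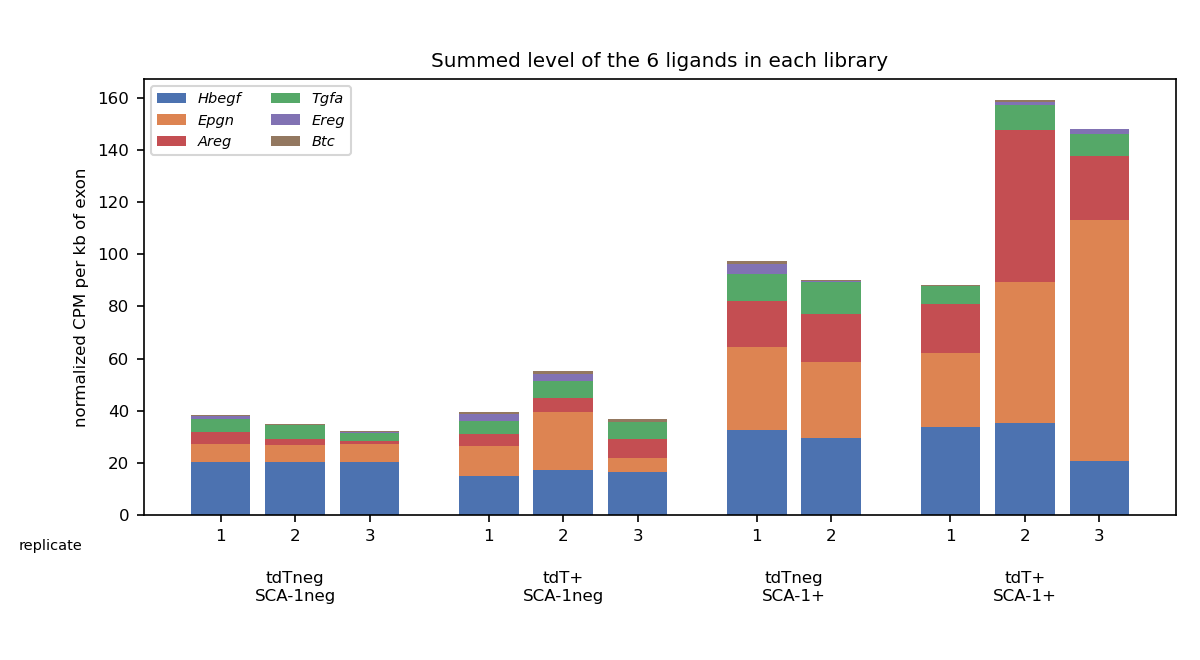
Stacked bars of normalized CPM per kb of exon for the 6 ligands in each library, by sorted group and replicate. The summed level is 32.2 to 55.2 CPM per kb in the SCA-1neg libraries and 88.1 to 159 CPM per kb in the SCA-1+ libraries, where *Epgn* and *Areg* make up more of each bar.

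The labels also ask whether progeny of *Cd4*-expressing cells (tdT+) differ from other cells of the same phenotype. In SCA-1neg cells 0 of the 10 genes were called by edgeR, against 0.00985% of all genes, and 2 had an unadjusted p under 0.05, against 8.42% of all genes. DESeq2 also called 0 of the 10, with 373 of all genes called. By edgeR's quasi-likelihood test these 2 were *Erbb3*, 1.69-fold higher in tdT+ cells (log2 fold change 0.75, interval 0.28 to 1.23, adjusted p = 0.35), and *Tgfa* (0.48, interval 0.01 to 0.95, adjusted p = 0.59). *Erbb3* was at 252, 190 and 163 CPM in tdT+ and at 129, 127 and 103 CPM in tdTneg SCA-1neg replicates 1 to 3, and every tdT+ library was above every tdTneg library. Over 17 alternatives its log2 fold change was 0.56 to 0.88 and its adjusted p 0.025 to 0.92, the lowest in DESeq2, where it passed the adjusted p but not the fold threshold. *Erbb3*, *Areg*, *Tgfa* and *Btc* did not overlap with higher values in tdT+, and *Hbegf* with lower values, which made 5 of 10 against 16% of all genes. Without TMM factors *Areg* and *Tgfa* overlapped, with *Areg* at 4.97 CPM in tdT+ and 5.78 CPM in tdTneg replicate 1. Without the library labelled tdT+ SCA-1neg replicate 2 edgeR called none of the 20392 genes tested (0%), and 1 of the 10 genes had an unadjusted p under 0.05. The log2 fold change was 0.79 for *Erbb3* (adjusted p = 0.53), 0.41 for *Tgfa* (adjusted p = 0.76) and 1.13 for *Areg* (adjusted p = 0.74). With TMM factors the same 5 genes did not overlap, against 26.2% of all genes.

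In SCA-1+ cells 0 of the 10 were called by edgeR and by DESeq2, against 2.31% of all genes (470) in edgeR and 1224 genes in DESeq2, and 0 had an unadjusted p under 0.05, against 14.6%. The libraries did not overlap for *Areg*, *Tgfa* and *Errfi1*, which made 3 of 10 against 33% of all genes. The log2 fold change of tdT+ over tdTneg for *Areg* was 1.10 in SCA-1neg (interval -0.08 to 2.28) and 0.92 in SCA-1+ cells (-0.41 to 2.24), and for *Epgn* it was 0.94 (-0.16 to 2.03) and 0.93 (-0.32 to 2.17). The intervals included 0 and also doublings, so a 2-fold difference could be neither shown nor dismissed. For *Epgn* the value in SCA-1neg cells fell to 0.30 without the library labelled tdT+ SCA-1neg replicate 2. For *Areg* it was 0.00 between the 29-week libraries (n = 2, 1 per group) and 1.92 between the 32-week libraries (n = 4). In SCA-1+ cells the value of *Areg* was 0.22 without tdT+ replicate 2. It was 0.09 between the 29-week libraries (n = 2, 1 per group) and 1.06 between the 32-week libraries (n = 3). That of *Epgn* was 0.42 without tdT+ replicate 3, and -0.17 and 1.26 at the same ages.

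**Figure D5:**
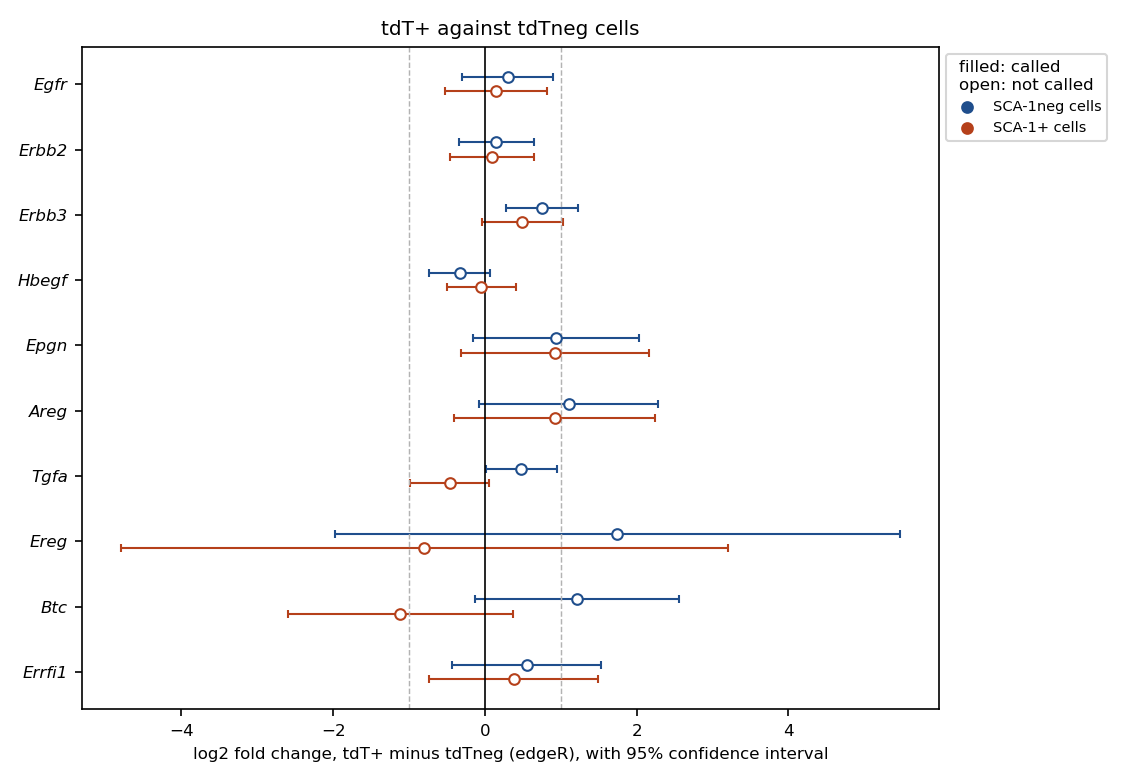
Log2 fold change of tdT+ over tdTneg cells for the 10 genes (edgeR, horizontal axis) in SCA-1neg (blue) and SCA-1+ cells (red), with 95% confidence intervals; open points were not called and dashed lines mark the fold threshold. None of the 10 genes was called, and *Tgfa*, *Btc* and *Ereg* lie on opposite sides of 0 in the 2 populations.

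The difference between the populations in the tdT effect was tested as an interaction. Of the 10 genes 0 were called by edgeR or DESeq2, against 0.389% of all genes (79) in edgeR and 844 genes in DESeq2, and 2 had an unadjusted p under 0.05, against 12.4%. For *Tgfa* the tdT effect was 0.48 in SCA-1neg and -0.46 in SCA-1+ cells on the log2 scale, a difference of -0.94 in edgeR's quasi-likelihood test (SE 0.32, adjusted p = 0.25). For *Btc* it was 1.22 and -1.11, a difference of -2.33 in edgeR's quasi-likelihood test (SE 0.90, adjusted p = 0.33). Neither passed the correction over all genes. Without the library labelled tdT+ SCA-1neg replicate 2 the difference was -0.88 for *Tgfa* (adjusted p = 0.41) and -2.33 for *Btc* (adjusted p = 0.45).

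Other genes of the pathway were followed in 5 lists. Between SCA-1+ and SCA-1neg cells the 12 ERK output genes, which are induced by the kinase cascade below the receptors, held 3 called genes, 1 higher and 2 lower, where 11.6% of all genes were called: *Dusp5*, a phosphatase of ERK, was higher (log2 fold change 1.21, SE 0.32, adjusted p = 0.026), and *Etv4*, a transcription factor (-1.10, SE 0.29, 0.027), and *Phlda1* (-1.12, SE 0.27, 0.018) were lower. *Dusp5* lay between 16.8 and 53.8 CPM in SCA-1neg and between 42.5 and 134 CPM in SCA-1+ libraries. *Etv4* lay between 26.1 and 53.1 CPM in SCA-1neg and between 8.04 and 30.9 CPM in SCA-1+ libraries. *Phlda1* lay between 37.2 and 117 CPM in SCA-1neg and between 22.2 and 65.2 CPM in SCA-1+ libraries. The called genes thus moved in both directions, and for all 3 the libraries of the populations overlapped. The list's median log2 fold change was -0.31, beside -0.09 over all genes. All 3 were also called without the library labelled tdT+ SCA-1neg replicate 2 (1.21 for *Dusp5*, -1.20 for *Etv4* and -1.25 for *Phlda1*). Each lost its call without some other libraries: *Dusp5* without tdT+ SCA-1+ replicate 3 (0.90) or without either tdTneg SCA-1+ library (1.34 without replicate 1, adjusted p = 0.055, and 1.08 without replicate 2, adjusted p = 0.10), *Phlda1* without tdT+ SCA-1neg replicate 3 (-0.96) or tdTneg SCA-1+ replicate 1 (-0.91). *Etv4* lost it without replicate 1 of any of the 4 groups or without tdT+ SCA-1+ replicate 3 (-0.92 to -1.10).

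Of the 7 genes of ligand release (proteases and their partners) none was called as the mean over tdT, against the 11.6% of all genes, with a median of 0.26 beside -0.09 over all genes. *Adam10*, a protease that cuts EGF and betacellulin free, was at 88.6 to 112 CPM in SCA-1neg, 127 to 148 in tdT+ SCA-1+ and 203 to 211 in tdTneg SCA-1+ libraries. It passed the adjusted p at a log2 fold change of 0.76 (SE 0.09), and within tdTneg cells, where 4.74% of all genes were called, it was the 1 called gene of the list (1.06, adjusted p = 0.0068). That call was lost without tdTneg SCA-1neg replicate 2 (0.98) or tdTneg SCA-1+ replicate 1 (adjusted p = 0.070). *Adam17*, the main protease for *Areg*, *Tgfa* and *Hbegf* products, had a log2 fold change of 0.41 (adjusted p = 0.0076). Of the 16 adaptors and kinases none was called (median 0.13), and of the 12 receptor attenuators none was called as the mean over tdT (median -0.06), again against 11.6% and a median of -0.09 over all genes. At that share a list of 6 to 16 genes would hold few called genes. Within tdT+ cells *Cblb*, a ubiquitin ligase, was called higher (1.09, adjusted p = 0.0078), at 116 to 158 CPM in SCA-1+ against 55.7 to 73.0 CPM in SCA-1neg libraries, where 8.45% of all genes were called. It was 1.11 (adjusted p = 0.022) without the library labelled tdT+ SCA-1neg replicate 2, where *Fosl1* of the ERK output genes was called too, and fell just below the fold threshold without tdT+ SCA-1neg replicate 1 or tdT+ SCA-1+ replicate 1 (0.99 in both). *Lrig1*, which encodes an inhibitor of EGF receptors and marks stem cells of the upper follicle, was at 155 to 335 CPM in SCA-1neg and 195 to 302 CPM in SCA-1+ libraries (log2 fold change -0.06).

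The 6 remaining family members were weakly expressed, and none was called, against 11.6% of all genes. *Nrg1* and *Nrg2*, neuregulins that bind ERBB3 or ERBB4, lay between 3.08 and 18.1 CPM and between 1.90 and 8.81 CPM over all libraries. *Nrg4* lay between 1.36 and 7.83 CPM and *Egf* between 0.165 and 5.94 CPM. *Erbb4* was at or below 2.04 CPM and *Nrg3* at or below 2.99 CPM, and both were at 0 in the 2 tdTneg SCA-1+ libraries. Between tdT+ and tdTneg cells no gene of the 5 lists was called in either population. In SCA-1neg cells only 0.00985% of all genes (2 genes) were called, so this count says nothing about the lists, and in SCA-1+ cells 2.31% were (470 genes).

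Finally, the genes most similar to each called gene were listed by Pearson's r of log2 CPM over the 11 libraries, which share depth and cell composition, so that r is a description. *Egfr* was most like *Pcbd1* (0.99), *Aldh2* (0.96) and *Ndrg2* (0.96). The genes most like *Areg* included *Il1f9* (0.96), the gene of a cytokine of the interleukin-1 family, and *Fmnl1* (0.95). *Epgn* was most like *Irak2* (0.97), *Herc4* (0.97) and *Inafm2* (0.96). *Tgfa*, called within tdTneg cells, was most like *Cxcl2* (0.97), which encodes a neutrophil chemokine, *Pik3r5* (0.97) and *Ppp1r16b* (0.95). Among the members themselves r was -0.90 for *Egfr* and *Hbegf*, 0.88 for *Areg* and *Tgfa* and 0.83 for *Areg* and *Epgn*.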

How the data were processed

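RNA was measured in 11 libraries of sorted epidermal back skin cells (TruSeq RNA v2, Illumina sequencing). According to the study's methods the authors aligned reads with STAR to mm10, counted them per gene of Ensembl 96 with featureCounts and used DESeq2 1.18.1, a version also in the submitters' processing notes. The deposited values are raw counts, not normalized. The strand setting is not given in the sources used here, and the kit does not mark strand. *Ereg*, *Tgfa* and *Erbb2* share 141, 118 and 9 exon bases with a gene on the opposite strand.

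The counts were fitted here in R 4.3.3 with edgeR 4.0.16 (TMM, filterByExpr, quasi-likelihood test, 1 mean for each of the 4 groups). The row outside Ensembl genes, at most 0.0307% of counts, was left out. Log2 CPM used a prior count of 2. The median half-width of the 95% interval of a log2 fold change was 0.71 to 1.40 over the 6 comparisons, which is the precision this depth and these replicates gave. The fit was also run on simulated counts with changes larger than most differences given here. Its outcome is not reported, and smaller changes were not simulated. Figures used Python 3.11.15 and matplotlib 3.10.9. Alternatives were DESeq2 1.42.0, RLE size factors, other filters, no threshold on the fold, a block for the replicate number, fits restricted to the compared groups, CPM without TMM factors, and omission of each library.

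The 10 genes and all lists were chosen with earlier results of these data known. All 10 genes are given with values. Called genes of the other lists are named, with *Adam17*, *Lrig1* and the remaining family members named after their values were seen, as are the correlations among the 10 genes. The alternatives for named genes of the other lists, and overlap and ligand sums without the library labelled tdT+ SCA-1neg replicate 2, were added after the data were seen. For each called gene the 3 genes of highest r are named, except for a gene that is not reported here. Equal replicate numbers were read as the same pool of 2 mice, from a legend of the study. For 15 same-numbered pairs, deviations from the group mean correlated with a median r of 0.08 (-0.42 to 0.59), and for 30 other pairs with -0.02. No replicate pair agreed within counting noise (chi-square per degree of freedom 51.4 or more).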

Additional observations from a re-analysis of the deposited data

Results flagged for a closer look

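The row of the count tables that is no Ensembl gene was not part of the comparisons and carried signal above the control libraries. It reached 307 CPM in the highest tdT+ library, against 2.54 to 4.89 CPM in the 5 tdTneg libraries, and 5 of 6 tdT+ libraries were at 133 CPM or more. The library labelled tdT+ SCA-1neg replicate 2 was at 2.05 CPM.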

How the results depend on the processing

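Of 867 refits of a log2 fold change of the 10 genes, 823 kept their direction and their side of the thresholds, 25 lost and 5 gained a call, and 14 turned direction, all in comparisons where the gene was not called. For the difference of the tdT effect between populations this count holds only *Tgfa* and *Btc*. Turns of direction of the other genes in that comparison were not counted. Counts were low for *Btc* (13 to 136 per library). Those of *Ereg* (0 to 479) also differed between libraries of near-equal depth, at 197 in tdT+ SCA-1neg replicate 2 and 0 in replicate 3. A lone library left by an omission is assumed to vary like the other groups. Between SCA-1+ and SCA-1neg cells as the mean over tdT, 3 genes were called under DESeq2, RLE size factors, both other filters and the replicate block, 6 with no fold threshold, and 2 to 3 when 1 library was left out (2 without tdT+ SCA-1neg replicate 1). Within tdT+ cells the omission of 1 library gave 0 to 3 called genes (*Hbegf* among them without tdT+ SCA-1+ replicate 3), and DESeq2 and the filter of at least 10 counts gave 4, with *Btc*. Within tdTneg cells the omission gave 0 to 3, the block 1 and the filter of any count 4, with *Egfr*. The block changed no other call of the 10 genes. In the comparisons of tdT+ with tdTneg cells and in their difference, 0 of the 10 were called under every alternative run. Comparison with the replicate block turned *Ereg* within tdT+ cells to 0.091, and in tdT+ against tdTneg SCA-1+ cells *Ereg* to 0.82 and *Hbegf* to 0.0025. Leaving out 1 library turned some uncalled values: between the populations *Ereg* ranged from -0.86 to 1.63, within tdT+ cells *Errfi1* from -0.037 to 0.65, and within tdTneg cells *Ereg* from -1.09 to 3.87 and *Btc* from -0.25 to 1.03. In tdT+ against tdTneg SCA-1+ cells *Ereg* ranged from -1.76 to 2.196, *Hbegf* from -0.24 to 0.16, *Erbb2* from -0.10 to 0.27 and *Egfr* from -0.035 to 0.26. The difference of *Lrig1* between the populations ranged from -0.19 to 0.079 when 1 library was left out. The cause was not tested. CPM without TMM factors moved 3 of 40 group means by more than 1 SD. *Ereg* was not refitted with at least 10 counts in every library, since it failed that filter.

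Over all genes the calls between SCA-1+ and SCA-1neg cells were 2347 with edgeR, 3542 with DESeq2, 3917 with no fold threshold and 1160 to 2510 without 1 library. Within tdT+ cells they were 1715, with 3407 by DESeq2 and 1174 to 2233 without 1 library. Within tdTneg cells they were 963, with 2170 by DESeq2, 1452 when fitting only the groups compared and 55 to 1300 without 1 library. For tdT+ against tdTneg SCA-1neg cells they were 2, with 373 by DESeq2, 5 by RLE, 166 with any count, 22 with at least 10 counts in every library, 4 with the block, 0 with only the groups compared and 0 to 7 without 1 library. For SCA-1+ cells they were 470, with 1224 by DESeq2, 885 with any count and 885 with only the groups compared, and 97 to 700 without 1 library. For the difference they were 79, with 844 by DESeq2, 568 with any count, 243 with at least 10 counts and 1 to 376 without 1 library.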
